A study of Mus musculus with 4 samples.

Results

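The genes described here are those of the ChREBP axis and of hepatic sugar metabolism in primary mouse hepatocytes given GW3965 or DMSO. They are the glucose-responsive transcription factor ChREBP (gene symbol Mlxipl), its paralogue MondoA (Mlxip), their shared partner Mlx, the regulatory protein Gckr, the liver pyruvate kinase Pklr, the fructose enzymes Khk and Tkfc, the glucose transporter Slc2a2 and the arrestin Txnip. Every non-control probe with one of these names was taken, which gave 13 probes for 9 genes, out of 55681 probes for 35080 names on the array. Tkfc was found under its older name Dak, and the other 8 were found under the names above. All 9 genes were among the 24657 genes and named features that passed the filter on dim signals, which asked for both arrays of at least 1 group to be well above background. All 13 probes were well above background on all 4 arrays and none was saturated, so the filter removed no member.

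The cells came from mice of the strain given as bl6 and were grown in DMEM with 10% fetal bovine serum. Both groups were then held overnight in low serum (0.5%) together with 5 µM of the statin simvastatin and 100 µM mevalonic acid, the product of the enzyme that statins block. The GW3965 group (2 arrays, replicates a and b) also received 1 µM GW3965, a drug-like compound that activates liver X receptors (LXR), and the DMSO group (2 arrays, replicates a and b) received the solvent. The glucose concentration of the medium is not given in the labels. Total RNA was labelled with Cy3 and read on 1-colour Agilent arrays, so levels below are log2 signals relative to each array's 75th percentile, and differences are GW3965 minus DMSO on that scale.

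ChREBP is a basic helix-loop-helix leucine zipper factor that binds DNA as a dimer with Mlx once glucose metabolites have activated it. In liver it is known for switching on glycolytic, fructolytic and lipogenic genes after a carbohydrate meal. Its sites, carbohydrate response elements, are made of a pair of E-box-like motifs, and Pklr and Txnip are among the classic genes that carry them. LXR are nuclear receptors for oxysterols, and Mlxipl itself has been described as an LXR target in mouse liver. The comparison thus asks whether an LXR agonist moved the ChREBP genes and the sugar genes around them.

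The probe sequences show which part of each message was measured, with positions on mm9 as the file headers give them. The probe that stood for Mlxipl, called Mlxipl probe 1 here, lies at chr5:135613705-135613764, and its second probe at chr5:135614195-135614254. They start at bases 3079 and 3493 of their transcripts, near the 3′ end, so neither separates ChREBP-alpha from ChREBP-beta, an isoform that is transcribed from another first exon. Their last 30 bases are shown because both contain letters found in probes of other genes. Capitals mark stretches of at least 15 bases shared with such probes.
Mlxipl probe 1, bases 31 to 60: gcgtatgtggatTTTATAAAAAAGAAAAtg
Mlxipl probe 2, bases 31 to 60: aTGCACACCTTTAATCCCAGTActtgggag
Mlxipl probe 1 shared its 16 capital bases, an A-rich run, with 2 probes of other names. Probe 2 shared its 21 with 4 probes, the longest run being 19 bases, and these letters resemble the B1 repeat of the mouse genome. Of all probes on the array, 30.57% shared such a stretch with a probe of another name, and 10 of the 13 probes of the 9 genes did not.

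For Pklr, Khk and Txnip a probe is printed whole, because it crosses an intron, is assigned to another transcript or starts further from the 3′ end than the gene's other probe.
Pklr probe: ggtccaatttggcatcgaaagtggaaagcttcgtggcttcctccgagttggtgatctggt
Khk probe 2: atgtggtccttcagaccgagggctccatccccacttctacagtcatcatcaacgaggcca
Txnip probe 2: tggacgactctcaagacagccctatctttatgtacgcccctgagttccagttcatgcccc
The Pklr probe covers 519 bases of the genome (chr3:88948907-88949425) for its 60 letters, so it crosses an intron. Khk probe 2 (chr5:31229105-31229164) is assigned in the files to an Ensembl transcript, whereas Khk probe 1 (chr5:31233555-31233614) is assigned to the RefSeq one. Txnip probe 2 (chr3:96364206-96364265) starts at base 1345 of the transcript and Txnip probe 1 (chr3:96365147-96365206) at base 2167.

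No member of the axis passed the test. In limma's fit over all genes, 0 of 9 members had an adjusted p (Benjamini-Hochberg) under 0.05, with the smallest member adjusted p at 0.999987. The same was true of the array as a whole, where 0% of the 24657 genes passed. At an unadjusted p under 0.05, 0 of 9 members counted, against 0.827% of all genes (204). The members' differences ran between -0.32 for Slc2a2 and 0.24 for Tkfc, with standard errors of 0.18 to 0.39. Means were higher with GW3965 for 4 members and lower for 5, and their median difference was -0.00032, beside -0.0060 over all genes. With 2 arrays a group, an exact permutation test of 1 gene cannot go below a two-sided p of 0.333. The labels do not say whether a and b came from separate animals or cultures, so these p-values measure only the spread between the samples.

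**Figure D1:**
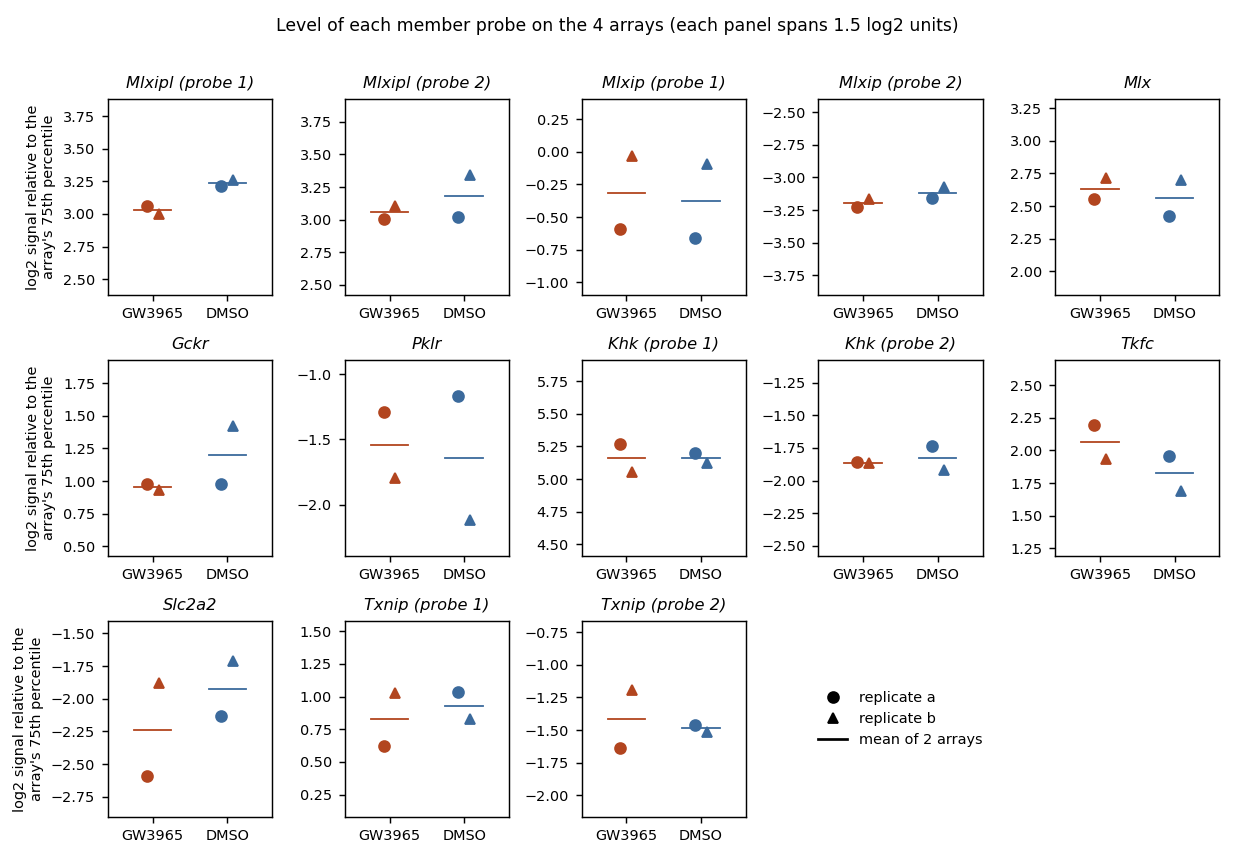
Level of each of the 13 probes on each array (y axis, log2 signal relative to the array's 75th percentile), with GW3965 left of DMSO, circles for replicate a, triangles for replicate b and bars for the mean of the 2 arrays. Every panel spans 1.5 log2 units, and only Mlxipl probe 1, Mlxip probe 2 and Gckr have both GW3965 arrays below both DMSO arrays, as do 6.54% of all genes.

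Among the probes that stood for the members, Mlxipl probe 1 had the most even replicates. Mlxipl probe 1 read 3.06 and 2.999 on the GW3965 arrays, against 3.22 and 3.26 on the DMSO arrays. Both GW3965 arrays lay below both DMSO arrays, as for 6.54% of all genes. The difference was -0.21 ± 0.18 (SE, 95% interval -0.68 to 0.26), or a fold of 0.865 with limits of 0.623 and 1.20. Mlxipl probe 2 read 3.01 and 3.11 on the GW3965 arrays, against 3.02 and 3.34 on the DMSO arrays. Its groups overlapped, and its difference of -0.12 had the same sign. The upper limit of 1.20-fold thus holds for probe 1 only. Probe 2 had a wider SE, 0.21 in a fit of each probe on its own, and no interval was computed for it. Both probes rest on 2 arrays a group.

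The partner and the paralogue of ChREBP had differences close to 0. Mlx, without which neither ChREBP nor MondoA binds DNA well, was measured at chr11:100952426-100952485 and read 2.55 and 2.72 on the GW3965 arrays, against 2.42 and 2.70 on the DMSO arrays. The groups overlapped, with a difference of 0.07 ± 0.21 (SE). Mlxip probe 1 (chr5:123907398-123907457) read -0.59 and -0.03 on the GW3965 arrays, against -0.66 and -0.09 on the DMSO arrays. In both groups replicate b was the higher array, by 0.56 with GW3965 and 0.57 with DMSO, while the groups differed by 0.06 ± 0.32 (SE). Mlxip probe 2, which lies at chr5:123896216-123896275 and is assigned to another transcript, read -3.22 and -3.16 on the GW3965 arrays, against -3.16 and -3.08 on the DMSO arrays. Its GW3965 arrays lay just below its DMSO arrays, with a difference of -0.08, so the sign depended on the probe.

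Slc2a2 and Gckr, the members on the list of glucose uptake and phosphorylation, had lower means with GW3965. Slc2a2 encodes GLUT2, the main glucose transporter of hepatocytes, and its probe (chr3:28627016-28627075) read -2.59 and -1.88 on the GW3965 arrays, against -2.13 and -1.71 on the DMSO arrays. The groups overlapped, since GW3965 replicate b was above DMSO replicate a. Its difference of -0.32 ± 0.32 (SE) was the lowest of the 9, a fold of 0.804 with 95% limits of 0.447 and 1.44. Without GW3965 replicate a the sign turned, to 0.04.

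Gckr encodes a regulatory protein of liver glucose metabolism that responds to fructose phosphates. Its probe (chr5:31629583-31629642) read 0.976 and 0.933 on the GW3965 arrays, against 0.977 and 1.42 on the DMSO arrays. DMSO replicate b stood above the other 3 arrays, while GW3965 replicate a differed from DMSO replicate a by -0.0014. The groups were apart only by that margin, and 6.54% of all genes had both GW3965 arrays below both DMSO arrays. The difference was -0.25 ± 0.23 (SE), and it was -0.02 without DMSO replicate b.

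Pklr encodes the pyruvate kinase of liver, the last step of glycolysis and one of the genes in which the carbohydrate response element was first worked out. It read -1.29 and -1.79 on the GW3965 arrays, against -1.17 and -2.12 on the DMSO arrays. Both groups had replicate b as the lower array, by 0.50 with GW3965 and 0.95 with DMSO, and they overlapped. The difference of 0.10 ± 0.39 (SE) had the widest interval of the 9, with fold limits of 0.526 and 2.19.

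Khk and Tkfc act one after the other on fructose: ketohexokinase phosphorylates fructose, and triokinase phosphorylates the glyceraldehyde that aldolase then releases. Khk probe 1 read 5.27 and 5.05 on the GW3965 arrays, against 5.20 and 5.12 on the DMSO arrays. The GW3965 arrays lay on either side of both DMSO arrays, and the difference was -0.00032 ± 0.19 (SE), with fold limits of 0.702 and 1.42. Khk probe 2 read -1.86 and -1.87 on the GW3965 arrays, against -1.73 and -1.92 on the DMSO arrays, and its difference was -0.04. The DMSO arrays lay on either side of both GW3965 arrays for this probe, so the files show no difference for either assigned transcript that exceeded the replicate spread.

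Tkfc had the highest difference of the members. Its probe, on the reverse strand at chr19:10666826-10666885, read 2.20 and 1.93 on the GW3965 arrays, against 1.96 and 1.69 on the DMSO arrays. GW3965 replicate b was below DMSO replicate a, so the groups overlapped. Between arrays of the same letter, GW3965 minus DMSO was 0.24 for a and 0.25 for b, though the labels do not pair the letters. The difference was 0.24 ± 0.22 (SE), a fold of 1.18 with 95% limits of 0.798 and 1.75.

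Txnip encodes an alpha-arrestin that binds thioredoxin and lowers glucose uptake, and its RNA is widely used as a readout of ChREBP and MondoA activity. Txnip probe 1 read 0.62 and 1.03 on the GW3965 arrays, against 1.03 and 0.83 on the DMSO arrays. GW3965 replicate a was the low array, the groups overlapped, and the difference was -0.10 ± 0.23 (SE). Txnip probe 2 read -1.64 and -1.19 on the GW3965 arrays, against -1.46 and -1.52 on the DMSO arrays. Here GW3965 replicate b was the high array, the groups overlapped again, and the difference of 0.07 had the opposite sign to that of probe 1.

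**Figure D2:**
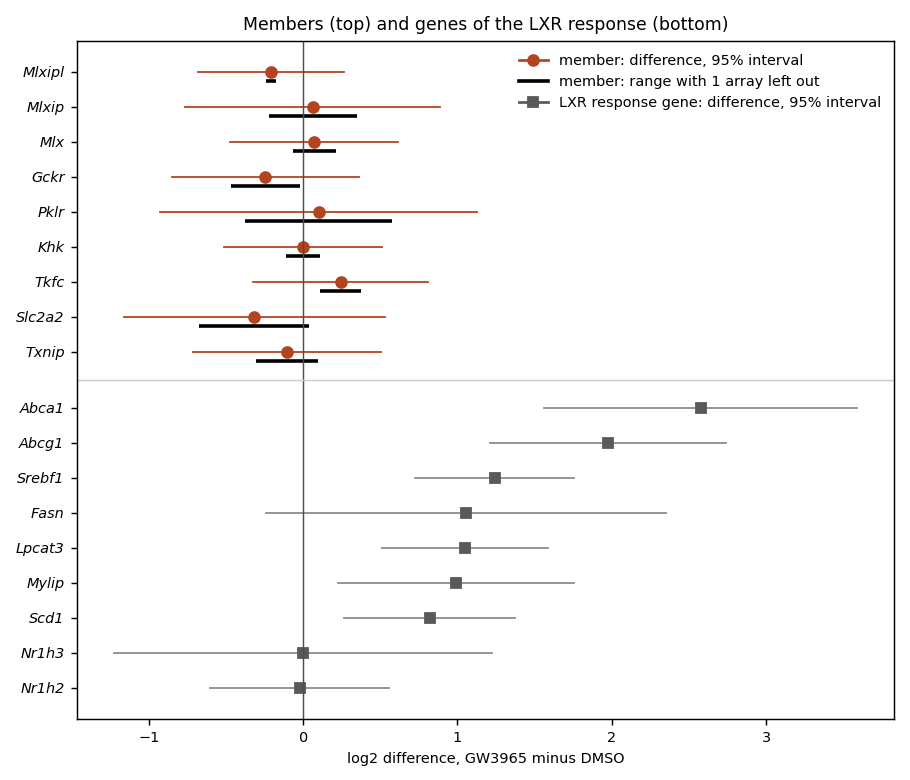
Difference of each member (top) and of each gene of the LXR response (bottom), GW3965 minus DMSO on the log2 scale (x axis), with points for the fitted difference, thin lines for the 95% interval from limma and thick black lines for the range of a member's difference when 1 array was left out. All 9 member intervals cross 0, and those of Abca1, Abcg1, Srebf1, Lpcat3, Mylip and Scd1 do not.

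The gap between replicates was larger than the difference between groups for 8 of the 9 members, a count not made over all genes. The larger of a gene's 2 gaps was used. Mlxipl, on probe 1, was the exception, with gaps of -0.06 with GW3965 and 0.04 with DMSO (replicate b minus a) beside its difference of -0.21. Mlxipl probe 2 was no exception, with gaps of 0.10 with GW3965 and 0.32 with DMSO beside -0.12. Slc2a2 had gaps of 0.71 with GW3965 and 0.42 with DMSO, and Tkfc had -0.26 with GW3965 and -0.27 with DMSO. For 6 of 9 members the gap had the same sign in both groups, which was also not counted over all genes. A gap of equal size in both groups drops out between arrays of the same letter. On letters a and b, GW3965 minus DMSO was 0.24 and 0.25 for Tkfc, 0.07 and 0.06 for Mlxip, and 0.13 and 0.02 for Mlx. It was -0.16 and -0.26 for Mlxipl, -0.46 and -0.17 for Slc2a2, and -0.0014 and -0.49 for Gckr. The sign differed between letters for Pklr (-0.12 and 0.32), Khk (0.07 and -0.07) and Txnip (-0.41 and 0.20). Leaving out 1 array also makes the letters unequal between the groups, so part of the gap enters the difference. The sign then turned for Mlxip, Mlx, Pklr, Khk, Slc2a2 and Txnip, with the widest range for Pklr (-0.37 to 0.57). For Mlxipl, Gckr and Tkfc it stayed as it was. Over all genes the gap had an SD of 0.56 within each group.

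**Figure D3:**
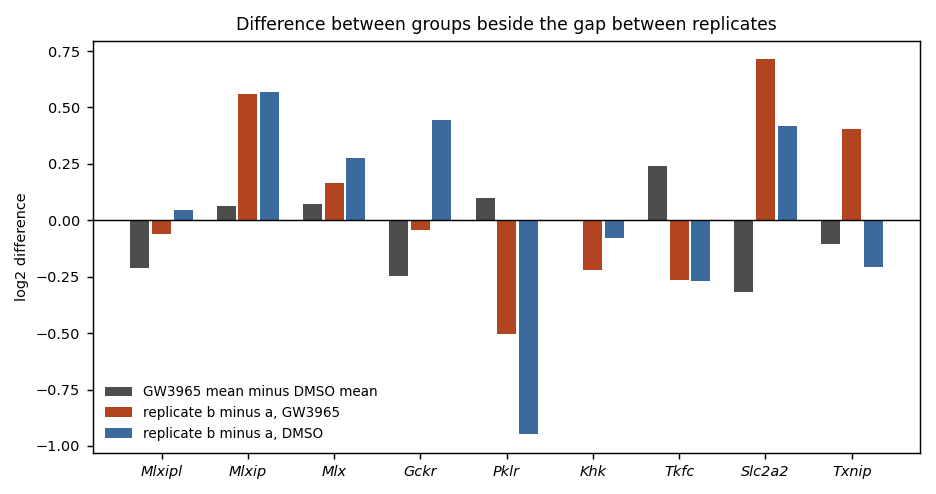
Log2 difference (y axis) for each member as 3 bars: the GW3965 mean minus the DMSO mean (grey), replicate b minus replicate a with GW3965 (red) and replicate b minus replicate a with DMSO (blue). The grey bar is the longest of the 3 only for Mlxipl.

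Which cells gave the RNA was described on marker genes, as summed scaled signals on the log2 scale. The signals were summed before log2 was taken, so the brightest genes of a list set its sum. In the DMSO group, hepatocyte markers ran from -2.47 for Cps1 to 9.85 for Serpina1a. Those of macrophages and leukocytes ran from -4.59 for Clec4f to 5.14 for Cd14. All 10 of 10 hepatocyte markers were measured, with sums of 11.1 and 10.4 on the GW3965 arrays, against 10.99 and 10.65 on the DMSO arrays. Markers of macrophages and leukocytes (8 of 8 measured) summed to 6.79 and 5.84 on the GW3965 arrays, against 6.65 and 5.67 on the DMSO arrays, and endothelial markers (6 of 6) to 5.09 and 5.40, against 5.01 and 5.29. Stellate and fibroblast markers (5 of 6) summed to 3.57 and 4.62 on the GW3965 arrays, against 3.25 and 4.46 on the DMSO arrays, and cholangiocyte markers (4 of 5) to 1.82 and 3.18, against 1.81 and 2.96. In both groups replicate a had the higher sum for hepatocytes and for macrophages and leukocytes, and replicate b had the higher sum for the other 3 lists. Gene by gene, all 10 hepatocyte markers and all 8 of macrophages and leukocytes were lower on replicate b in both groups, while 4 of 6 endothelial and 4 of 5 stellate and fibroblast markers were higher there. The cholangiocyte list was split, with Krt19 and Epcam higher and Sox9 and Cftr lower on replicate b in both groups. The part of these shifts in the replicate gaps of the members was not tested, and fewer cells of a type and less RNA per cell cannot be told apart in such samples.

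Genes known to answer LXR agonists were read on the same arrays for scale. This list, like the others, was chosen with earlier results of these data known, so its counts are no independent check. Of its 9 genes, 7 had both GW3965 arrays above both DMSO arrays, against 9.42% of all genes. An unadjusted p under 0.05 (limma) was found for 6, against 0.827% of all genes. After adjustment 0 passed (smallest adjusted p over all genes 0.942, limma). Abca1, the cholesterol exporter, read 3.31 and 3.85 on the GW3965 arrays, against 1.46 and 0.55 on the DMSO arrays, a difference of 2.58 ± 0.39 (SE) or 5.96-fold. Srebf1, which encodes the lipogenic factor SREBP-1c, read 0.37 and 0.43 on the GW3965 arrays, against -0.96 and -0.72 on the DMSO arrays, a difference of 1.24 ± 0.20 (SE). The other genes of this list with non-overlapping groups were Abcg1 (1.98 ± 0.29, SE), Lpcat3 (1.05 ± 0.21, SE), Mylip (0.99 ± 0.29, SE), Fasn (1.06 ± 0.49, SE) and Scd1 (0.82 ± 0.21, SE). The receptors themselves had differences of -0.02 for Nr1h2 and 0.00066 for Nr1h3. The median of the list was 1.05, beside the members' -0.00032.

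ChREBP's targets in liver were described as a lipogenic list and a list of other targets, which holds 6 of the members. Of 16 lipogenic genes measured, 0 passed the adjusted test, 11 had higher means with GW3965 (11959 of 24657 over all genes) and 4 had both GW3965 arrays above both DMSO arrays (9.42% over all genes), with a list median of 0.22. Several of them, such as Scd1 and Fasn, are also direct targets of LXR or SREBP-1c, so the list does not belong to ChREBP alone. Acaca, which makes malonyl-CoA, read 3.75 and 3.95 on the GW3965 arrays, against 3.24 and 3.50 on the DMSO arrays, a difference of 0.48 ± 0.21 (SE). Pnpla3, a lipid droplet acylhydrolase, had a larger difference, 1.09 ± 0.59 (SE), but its groups overlapped. Of 15 other targets measured, 0 passed, 5 had higher and 10 lower means, and the median was -0.13. Rgs16, a regulator of G protein signalling, had a difference of -0.17 ± 0.18 (SE) with both GW3965 arrays below both DMSO arrays (6.54% over all genes). Bhlhe40, a clock repressor, had 0.18 ± 0.24 (SE) with overlapping groups. That median took both signs when 1 array was left out (-0.13 to 0.08).

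**Figure D4:**
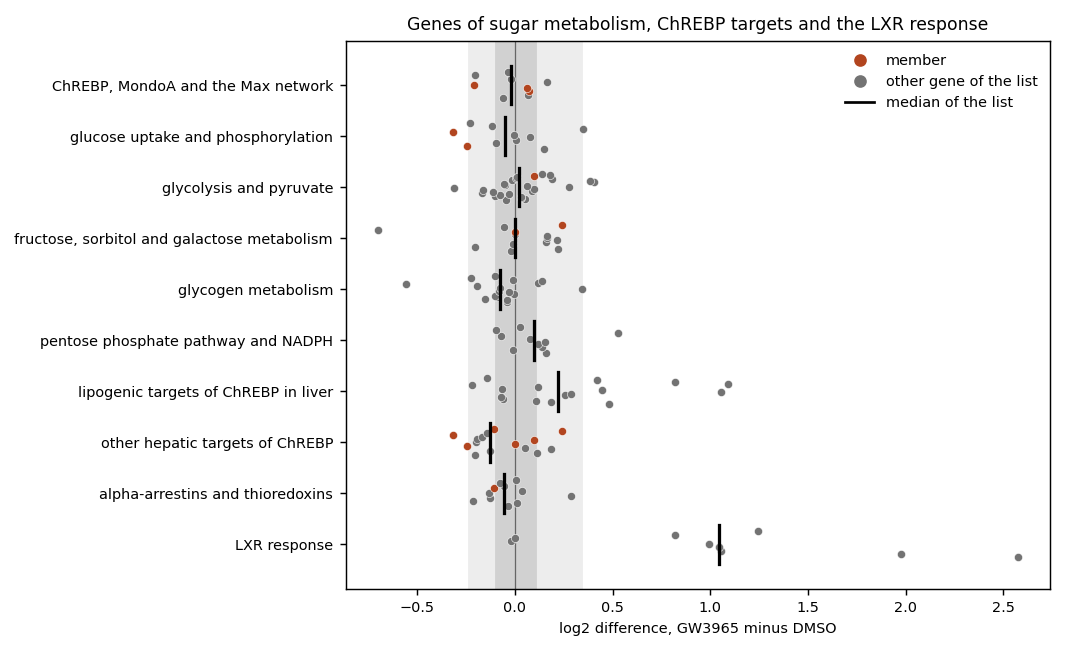
Differences of all measured genes of each list (x axis, log2, GW3965 minus DMSO), 1 row a list, with members in red, other genes in grey and a black tick at the list's median. The dark band spans the middle 50% of all genes (-0.09 to 0.11) and the light band their 5th to 95th percentile (-0.23 to 0.34), and the LXR response list has its median at 1.05.

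In the other lists of hepatic sugar metabolism 0 genes passed the adjusted test, and single differences ran beyond those of the members, between -0.70 for Slc2a5 and 0.53 for Rpia. Among 26 genes of glycolysis and pyruvate the median was 0.02, and 3 had both GW3965 arrays above both DMSO arrays, near the 9.42% of all genes. These included Pdk4, a kinase that turns pyruvate dehydrogenase off, at 0.27 ± 0.18 (SE), and Pkm, the pyruvate kinase of other tissues, at 0.18 ± 0.18 (SE). Among 10 genes of glucose uptake and phosphorylation the median was -0.05. Slc2a3, a glucose transporter of other tissues, had 0.35 ± 0.27 (SE), and Slc2a9, a transporter of urate, had -0.23 ± 0.28 (SE), both with overlapping groups.

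Fructose, sorbitol and galactose genes (13 measured) had a median of 0.0029. Galactokinase (Galk1) was the 1 gene among them with both GW3965 arrays above both DMSO arrays (9.42% over all genes), at 0.21 ± 0.18 (SE). The fructose transporter Slc2a5 had -0.70 ± 0.88 (SE) with overlapping groups. Glycogen genes (17 measured) had lower means in 14 cases (12698 of 24657 over all genes) and higher in 3, with a median of -0.07, and 3 had both GW3965 arrays below both DMSO arrays (6.54% over all genes). Phkb, a subunit of phosphorylase kinase, had both GW3965 arrays above both DMSO arrays (9.42% over all genes), at 0.35 ± 0.21 (SE). Ppp1r3c, which targets a phosphatase to glycogen, had -0.56 ± 0.47 (SE) with overlapping groups. Pentose phosphate and NADPH genes (10 measured) had a median of 0.10, led by Rpia, ribose 5-phosphate isomerase, at 0.53 ± 0.48 (SE). When 1 array was left out, the median took both signs for the fructose list (-0.20 to 0.33), for glycolysis (-0.15 to 0.16), for glucose uptake (-0.10 to 0.04) and, barely, for the pentose phosphate list (-0.01 to 0.14), and it stayed below 0 for glycogen (-0.14 to -0.03).

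The Max network around ChREBP and the arrestins around Txnip were also near 0. Of 11 network genes 9 were measured, and their median was -0.02. Mnt, a Max-binding repressor that can also pair with Mlx, had 0.16 ± 0.20 (SE), and Mxd4, another partner of Max, had -0.21 ± 0.45 (SE), both with overlapping groups. The 11 alpha-arrestins and thioredoxins had a median of -0.06. Arrdc3, an arrestin related to Txnip, had -0.22 ± 0.21 (SE), and thioredoxin 1 (Txn1), the protein that Txnip binds, had -0.13 ± 0.19 (SE). Both had the GW3965 arrays below the DMSO arrays, as did 6.54% of all genes. Without 1 array the network median lay between -0.22 and 0.25.

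The genes whose levels followed Mlxipl most closely over the 4 arrays were sought among 156 measured genes of all lists, by the root mean square difference after each gene's own mean was subtracted. Rgs16 was the closest at 0.030, followed by Txn1 at 0.060 and Gyg, which encodes glycogenin, at 0.065. Relative to its mean, Mlxipl stood at -0.07 and -0.14 on the GW3965 arrays, against 0.08 and 0.13 on the DMSO arrays, and Rgs16 at -0.08 and -0.09 on the GW3965 arrays, against 0.05 and 0.11 on the DMSO arrays. With 4 arrays this is a description of likeness only.

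The promoters of the members were read from RefSeq sequence (GRCm38.p6), 250 bases before to 50 after each start, in 11 windows for the 9 genes. The E-box CACGTG, which both strands read alike, was present in 3 windows, those of Khk, Mlx and the more upstream of the 2 starts of Mlxipl, which lie 17001 bases apart. Of all 32851 promoter windows, 7.15% hold it. The 60 bases around each match are shown, with the E-box in capitals and all on the forward strand.
Khk, chr5:30921461-30921520: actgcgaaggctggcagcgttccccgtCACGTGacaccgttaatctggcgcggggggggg
Mlx, chr11:101087223-101087282: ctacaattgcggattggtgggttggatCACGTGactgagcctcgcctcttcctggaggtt
Mlxipl, chr5:135089765-135089824: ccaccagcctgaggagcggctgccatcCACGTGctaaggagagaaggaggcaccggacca
The matches begin 71 bases before the start of Khk, 40 before that of Mlx and 98 before that of Mlxipl. A strict form of the carbohydrate response element consensus and one of the LXR DR4 consensus, searched on both strands with exact letters, were found in 0 of the 11 windows. Looser forms were not searched, so elements that differ from these letters, in Pklr and Txnip too, would be missed. Of all windows, 0.03% hold the first and 0.08% hold the second. A match is a description of the letters in the window, and the absence of one says nothing about binding elsewhere. On the arrays the differences of these genes were -0.00032 for Khk, 0.07 for Mlx and -0.21 for Mlxipl.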

How the data were processed

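Each sample's array file holds signal intensity per spot on a linear scale, made with Agilent Feature Extraction 10.7.3.1 per the file headers (the submitters' processing notes name 11.5.1.11), with background and spatial trend subtracted. The authors' deposited values per array, given as a separate matrix, hold the same intensity (largest difference 0 over 62976 features an array). All 4 arrays shared 1 slide and 1 scan. The treated samples' label reads LXR against GW3965 and was taken as the agonist GW3965 that the series description names.

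From the deposited intensity values, control and outlier spots were left out (59305 spots remained), log2 was taken, and replicate spots were averaged per probe before the 75th percentile of the array was subtracted. Of 55681 probes, 34797 to 38503 an array were well above background. A probe was kept where both arrays of at least 1 group were well above background (35505 probes, of which 5 were dropped for outlier spots). RefSeq accessions gave names to 26762 probes, while 28919 have the files' own. The probe with the highest mean stood for a gene. The test over 24657 genes used limma 3.58.1 under R 4.3.3 (group as the only term, 2 residual and 2.72 prior degrees of freedom, two-sided, Benjamini-Hochberg over all genes, threshold 0.05). data.table (version 1.17.8) read the files and matplotlib 3.10.9 drew the figures. The number of arrays limits the precision.

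The members and the 15 lists (165 genes, 157 measured) were chosen with earlier results of these data known. Mxd3, Mxi1, Slc2a4, Ppp1r3g, Epm2a, Fgf21, Lrat and Krt7 were on the array but did not pass the filter. Named are all members with all their probes, all genes of the LXR response, up to 4 other genes of each list with the smallest unadjusted p and the 3 genes most like Mlxipl, and some of the genes so named are not reported here. Probe positions are on mm9 per the file headers (no annotation of that build was used, so exons and UTRs are not given), and promoters are RefSeq sequence of GRCm38.p6. The choices varied were the scaling (quantile, or the array's median), the background (normexp, offset 50), the source (the deposited values), the filter (none, or all 4 arrays), the probe rule (mean, or each probe singly), a block for the replicate letter, and leaving out single arrays.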

Additional observations from a re-analysis of the deposited data

How the results depend on the processing

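The count of members passing the adjusted test was 0 under all 13 alternatives. Not all of these are separate checks: the deposited values were the same as the main input, and changing the filter left every member's difference as it was. Their median difference lay between -0.05 and 0.03 over the alternatives that used all arrays and between -0.18 and 0.04 with 1 array left out. Mlxipl, Gckr and Tkfc kept their sign in every alternative run (-0.26 to -0.12, -0.47 to -0.02 and 0.11 to 0.38). Khk turned to 0.026 under quantile normalization and to 0.020 under normexp, Mlxip to -0.0075 as the mean of its probes and to -0.077 on its other probe, and Txnip to 0.074 on its other probe. With 1 array left out, the difference ran between -0.22 and 0.35 for Mlxip, -0.066 and 0.21 for Mlx, -0.37 and 0.57 for Pklr, -0.11 and 0.11 for Khk, -0.67 and 0.041 for Slc2a2, and -0.31 and 0.10 for Txnip. With 1 array left out the letters were unequal between the groups, so part of the replicate gap entered these differences. The turns of Mlxip and Txnip under the other alternatives follow from their probes, whose differences had opposite signs (0.062 and -0.077 for Mlxip, -0.105 and 0.074 for Txnip). Khk stood at -0.00032 in the main fit, and why its sign turned was not tested. With the replicate letter as a block, 0 members passed (smallest member adjusted p = 0.958, limma), while 15 of all genes passed against 0 without the replicate block, and genes with an unadjusted p under 0.05 numbered 1336 against 204. Arrays of the same letter deviated together (correlation 0.72 across genes, with 2 arrays a group), but the labels do not say that a letter marks a shared animal or day. Without DMSO replicate b, 1 gene passed over all genes. Centring on the median moved the median of all genes to -0.06, beside -0.0060.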

Other observations

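Some markers of cell types differed more between replicate letters than between groups, and those of bile duct cells did not run 1 way. Krt19, a keratin of bile duct cells, read 0.55 and 2.90 on the GW3965 arrays, against -0.12 and 2.60 on the DMSO arrays. Acta2, smooth muscle actin of activated stellate cells, read 2.37 and 3.98 on the GW3965 arrays, against 2.01 and 3.79 on the DMSO arrays. Both genes were higher on replicate b of each group. Sox9, a transcription factor of bile duct cells, read 0.99 and 0.59 on the GW3965 arrays, against 1.31 and 0.71 on the DMSO arrays, and Cftr, a chloride channel of these cells, read -3.95 and -4.77, against -3.92 and -4.88. Both were lower on replicate b of each group. Hnf4a, a hepatocyte transcription factor, read 4.03 and 2.35 on the GW3965 arrays, against 4.08 and 2.79 on the DMSO arrays, and Adgre1, a macrophage surface receptor, read -1.84 and -3.26, against -1.36 and -2.75. These genes, too, were lower on replicate b.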
